A study of Mus musculus with 12 samples.

Results

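Cellular iron and zinc handling was followed in the mouse heart through 10 genes, taken by symbol from a table of 31722 genes: the transferrin receptor Tfrc, the ferritin chains Fth1 and Ftl1, the exporter Slc40a1, the importers Slc11a2 and Slc39a14, the ferritin receptor Ncoa4, the hormone Hamp and the metallothioneins Mt1 and Mt2. The hearts of 12 C57BL/6J mice were sequenced. A Control group had 6 mice, and 6 mice received carbon tetrachloride (CCl4), a liver toxin used here to model cirrhosis, so that its effect on the heart could be studied. The labels used here give no dose, route, duration, age or sex, do not say what the Control mice received, and name the tissue only as heart. Values are reads scaled by gene length and by library size (RPKM), so that levels can be set side by side between genes and between hearts. They still depend on which other RNAs fill each library.

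Iron enters most cells bound to transferrin, which the transferrin receptor carries into endosomes, where divalent metal transporters pass it to the cytosol. What is not used at once is stored inside ferritin, a shell of heavy and light chains, and is released when NCOA4 carries ferritin to the lysosome; ferroportin, the product of Slc40a1, is the known route out of the cell. Hepcidin, encoded by Hamp, is made mainly by the liver and also by the heart, and blocks ferroportin. Metallothioneins are small proteins rich in cysteine that bind zinc, copper and cadmium, and their genes are switched on by the zinc sensor MTF1, by glucocorticoids and by oxidative stress. Much of the control of iron genes acts on their messenger RNA: when iron is short, iron regulatory proteins bind a hairpin, the iron-responsive element, which blocks translation when it lies in the 5′ untranslated region and stabilises the RNA when it lies in the 3′ region. A change in ferritin translation would therefore not be seen in RNA levels.

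The hairpins are shown because iron acts through them on the RNA of some of the 10 genes. A search of GENCODE M21 transcripts on GRCm38 for an unpaired C, 5 paired bases and a CAGTGN loop found them in 4 of the 10 genes, and in 45 of 21877 coding genes (0.206%). Each is printed 5′ to 3′ on the strand of its gene, with the unpaired C and the 6 loop bases in capitals. Fth1 (chr19:9982733-9982759, plus strand), Ftl1 (chr7:45459780-45459806, minus strand) and Slc40a1 (chr1:45925466-45925492, minus strand) each hold 1 in the 5′ untranslated region.
Fth1: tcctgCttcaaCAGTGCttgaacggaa
Ftl1: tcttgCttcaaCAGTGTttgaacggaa
Slc40a1: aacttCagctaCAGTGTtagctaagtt
Tfrc holds 4 in the 3′ untranslated region, on the plus strand of chromosome 16, at chr16:32631220-32631246, chr16:32631599-32631625, chr16:32631664-32631690 and chr16:32631711-32631737.
Tfrc site 1: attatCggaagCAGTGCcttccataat
Tfrc site 2: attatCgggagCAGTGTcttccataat
Tfrc site 3: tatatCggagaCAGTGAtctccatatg
Tfrc site 4: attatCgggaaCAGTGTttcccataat
No gene of the 5 wider iron and zinc lists described below held a site of this form. The search asked for a strict form, so a gene without a match may still hold a hairpin of another form. A gene with matches, such as Tfrc, may hold more than were found. The search therefore does not show which of the 10 genes or list genes lie outside this control.

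The promoters of the 2 metallothionein genes are shown because Mt2 had the smallest unadjusted p of the 8 tested genes and Mt1, of the same family, lies beside it. Both lie on the plus strand of chromosome 8. The 250 bases before the RefSeq start on GRCm38.p6 were searched on both strands for the cores TGCGCNC and TGCACNC of the metal response element, the site that MTF1 binds; matches are in capitals and none overlapped. Mt2 (chr8:94172368-94172617) held 3 and Mt1 (chr8:94178839-94179088) held 1. With the 50 bases after the start included, the counts were 4 and 3, since Mt1 held 2 more just past its start and Mt2 held 1 more. Bases further downstream were not searched, so the counts of both genes depend on the start used.
Mt2: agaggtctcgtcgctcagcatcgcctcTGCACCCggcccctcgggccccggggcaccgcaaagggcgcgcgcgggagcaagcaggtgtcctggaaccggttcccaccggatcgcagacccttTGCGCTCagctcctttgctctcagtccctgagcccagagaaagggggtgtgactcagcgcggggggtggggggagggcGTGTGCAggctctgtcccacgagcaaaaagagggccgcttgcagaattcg
Mt1: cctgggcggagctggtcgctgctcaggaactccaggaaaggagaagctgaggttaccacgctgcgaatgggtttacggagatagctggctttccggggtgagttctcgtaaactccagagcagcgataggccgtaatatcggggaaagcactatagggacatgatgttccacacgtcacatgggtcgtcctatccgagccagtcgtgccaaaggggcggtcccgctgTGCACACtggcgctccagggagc
Of 27025 promoters of this length, 21.3% held at least 1 match and 1.28% held at least 3. A match describes letters, not binding. Of the 10 genes, 7 were found in the promoter table, and Tfrc and Ncoa4 were the other two with a match before any of their starts.

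Library depth, recovered from the smallest step between values, ran from 26352341 to 57822439 reads in Control hearts and from 39676831 to 63408175 in CCl4 hearts. Depending on the heart, 70.3% to 73.6% of low recovered values were even numbers. Both ends of a fragment may have been counted as separate reads, which was not tested. The read numbers given here may therefore exceed the number of independent fragments. Cardiomyocyte markers were the most abundant of the marker lists in all 12 hearts, with Myh6 at 8991 to 17700 RPKM. The hearts differed in 2 ways that no label records. Replicates 2 and 5 of each group had Xist at or under 0.126 RPKM and carried Ddx3y, and the other 8 hearts had Xist above 19 RPKM. The mean level of 4 atrial markers (Myl7, Myl4, Sln and Bmp10) was high in 5 hearts, Control 1, 2, 3 and 5 and CCl4 4. In these 5 hearts Myl7, an atrial light chain, was at 140.7 to 419.2 RPKM against 0.811 to 28.7 in the other 7, Myl4 at 102.7 to 391.4 against 0.993 to 33.1, and Sln at 7.87 to 37.6 against 0.0605 to 1.75. Bmp10 and Nppa did not divide the hearts this way: Bmp10 was at 0.0208 RPKM in Control 5 and 1.11 in Control 4, and Nppa, left out of that mean, was higher in CCl4 3 (9552) and CCl4 6 (6675) than in Control 2, 3 and 5 (2041 to 4081). Adipocyte markers divided the hearts as Myl7 did, with a sum of 4 markers of 6.65 to 21.7 RPKM in the same 5 and 0.361 to 1.70 in the other 7. Genes were tested with limma on log2(RPKM + 1), where a log2 fold change is the CCl4 mean minus the Control mean and understates changes of low genes; p-values were adjusted over the 14087 genes at or above 0.5 RPKM in at least 6 hearts. Over all of them 0 genes passed an adjusted p of 0.05 (0.0%), 226 were higher (1.6%) and 1209 lower (8.58%) at an unadjusted p under 0.05, and in 107 (0.76%) the groups did not overlap. Mitochondrial RNA took 29.5% to 37.9% of reads in Control hearts and 31.6% to 43.8% in CCl4 hearts, with CCl4 2 the highest. The split at unadjusted p follows the scaling: when scaled without mitochondrial RNA it was 641 higher and 591 lower, and by medians of ratios 772 and 788.

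Of the 10 genes, 8 met the expression filter. None of the 8 passed the adjusted threshold in limma, 1 (Mt2) was higher and 0 were lower at an unadjusted p under 0.05, and in 0 did the groups fail to overlap. With so few genes these counts cannot be told from the background shares of 0.0%, 1.6%, 8.58% and 0.76%. Estimates were above 0 for 3 and below 0 for 5, with a median log2 fold change of -0.06 against -0.05 over all genes tested. The plot of the 10 genes by heart shows that the spread within groups was as wide as the distance between them for nearly every gene.

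**Figure D1:**
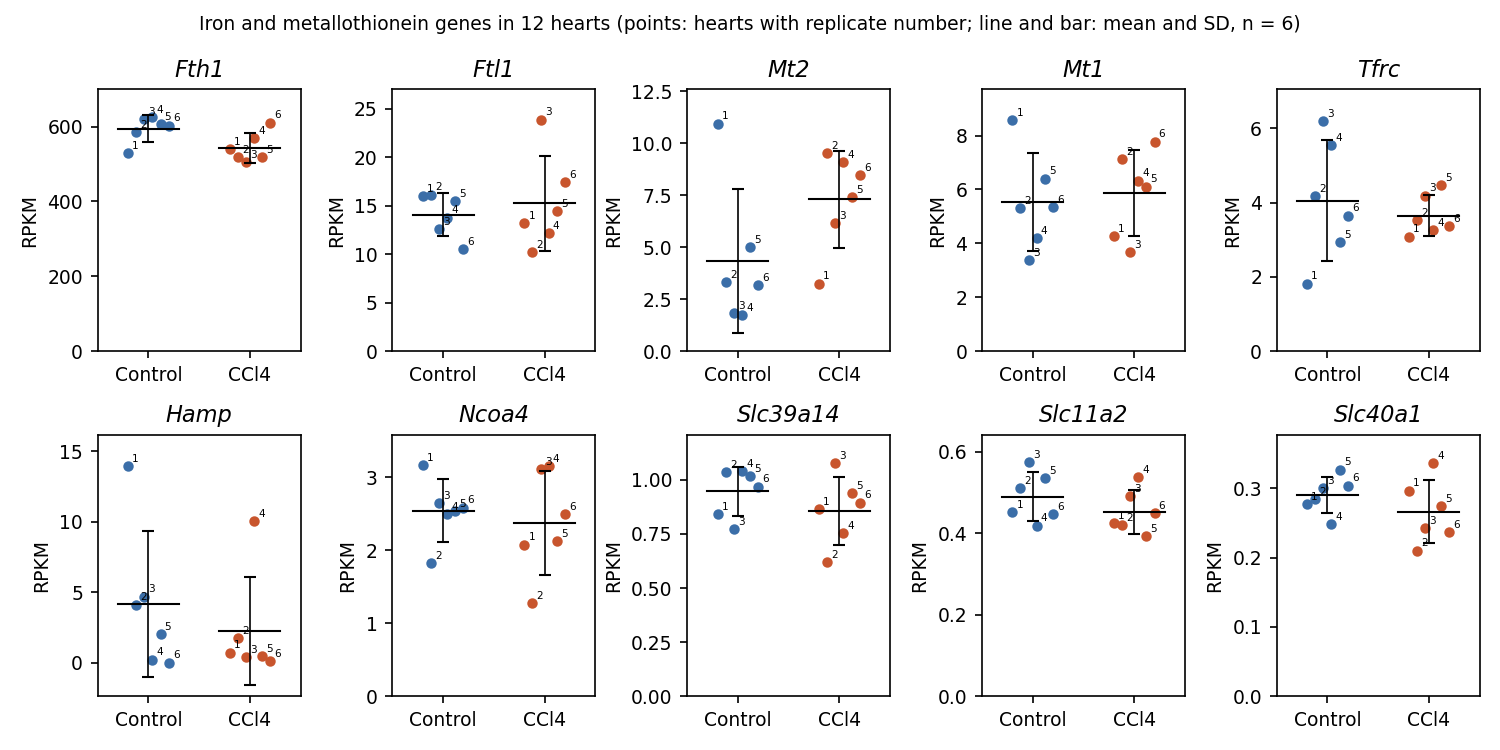
RPKM (y axis, linear) of each of the 10 genes in the 6 Control and 6 CCl4 hearts (x axis); points are hearts with their replicate number, the line and bar are the mean and SD, and genes are ordered by mean level. Mt2 has 5 of 6 CCl4 hearts above 5 of 6 Control hearts, with replicate 1 of each group on the other side, and Hamp is high in Control 1 and CCl4 4.

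The genes spanned a wide range of levels per length. Over 12 hearts Fth1 averaged 569.2 RPKM, followed by Ftl1 at 14.7, Mt2 at 5.82, Mt1 at 5.71, Tfrc at 3.85, Hamp at 3.20, Ncoa4 at 2.46, Slc39a14 at 0.901, Slc11a2 at 0.471 and Slc40a1 at 0.278. Fth1 stood far above every other gene. Ftl1 came next and overlapped Mt2 and Hamp only through Control 1, the highest heart in both, and Slc39a14, Slc11a2 and Slc40a1 followed one another with ranges that did not overlap in Control hearts. Mt2, Mt1, Tfrc and Hamp overlapped in Control hearts, so their order does not hold beyond the spread. Ncoa4 overlapped Mt2, Tfrc and Hamp, but its highest heart (3.16 RPKM) lay below the lowest Mt1 heart (3.39 RPKM). Hamp, highest in 2 hearts, reached below all the others in Control 6.

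Ferritin heavy chain RNA was the most abundant of the group and varied little. Fth1 (chr19:9980598-9985098), whose product oxidises iron as it enters the shell, had a lowest, median and highest level of 528.9, 604.2 and 626.2 RPKM in Control hearts and 504.4, 529.9 and 610.6 in CCl4 hearts. CCl4 hearts 2, 3 and 5 lay below every Control heart, while CCl4 6 lay among the highest, and the groups overlapped. The means were 594.7 ± 35.2 and 543.7 ± 39.8 RPKM (SD, n = 6 each). The log2 fold change was -0.13 (SE 0.08, adjusted p = 0.603, limma); an exact two-sided permutation test of this single gene gave p = 0.0433, unadjusted. The estimate was -0.04 when scaled without mitochondrial RNA, -0.06 by medians of ratios and -0.21 as TPM.

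Ferritin light chain RNA gave no difference beyond its spread. Ftl1 (chr7:45457944-45459884, minus strand), which helps iron form a mineral core, was at 10.6, 14.6 and 16.1 RPKM (lowest, median, highest) in Control hearts and 10.2, 13.8 and 23.9 in CCl4 hearts. CCl4 3 and 6 lay above every Control heart and CCl4 2 below, and the other CCl4 hearts fell within the Control range. The means were 14.1 ± 2.21 and 15.2 ± 4.87 RPKM (SD, n = 6 each), with a log2 fold change of 0.07 (SE 0.17, adjusted p = 0.925, limma). Without CCl4 3 the estimate turned to -0.06. CCl4 3 also had the highest summed level of 10 macrophage markers, 239.3 RPKM, against 56.8 to 80.8 in Control hearts, and CCl4 2 the lowest, 41.4; the part of macrophage RNA in the Ftl1 values was not tested. Fewer cells of a type and less RNA per cell cannot be told apart in heart RNA.

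The level of Ftl1 itself is uncertain. Ferritin genes have near-identical processed copies, and how reads that match several places were counted is not given in the sources used here. Other gene models overlap 34.6% of the Ftl1 exons: Gm22133, 109 bases on the same strand and at 52.7 RPKM, and Gm10252, 355 bases on the opposite strand and at 7.54 RPKM. The separate copy Ftl1-ps1 was at 0.315 RPKM in Control and 0.349 in CCl4 hearts. The ratio of Fth1 to Ftl1 per heart, 43.4 ± 8.94 in Control and 38.4 ± 10.4 in CCl4 hearts (SD, n = 6 each), carries the same uncertainty.

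Ncoa4 (chr14:32159865-32179855), the receptor that takes ferritin to the lysosome, was at 1.82, 2.56 and 3.16 RPKM in Control hearts (lowest, median, highest) and at 1.28, 2.31 and 3.15 in CCl4 hearts. CCl4 2 was the lowest heart of all, and the other CCl4 hearts lay within the Control range. The means were 2.54 ± 0.428 and 2.37 ± 0.708 RPKM (SD, n = 6 each), and the log2 fold change was -0.09 (SE 0.14, adjusted p = 0.870, limma). Its sign rested on CCl4 2, without which it was 0.02.

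Transferrin receptor RNA was more variable in Control than in CCl4 hearts. Tfrc (chr16:32608920-32632794) was at 1.82, 3.92 and 6.20 RPKM in Control hearts (lowest, median, highest) and at 3.08, 3.45 and 4.47 in CCl4 hearts. All 6 CCl4 hearts lay inside the Control range, which Control 1 set at the low end and Control 3 and 4 at the high end. The means were 4.05 ± 1.63 and 3.65 ± 0.553 RPKM (SD, n = 6 each), with a log2 fold change of -0.06 (SE 0.19, adjusted p = 0.944, limma). The sign turned without Control 3 (0.06) or Control 4 (0.03). Red cell markers summed to 115.7 to 234.9 RPKM in Control and 156.6 to 244.5 in CCl4 hearts, with Control 1 the highest Control heart. Of the tested markers 5 of 5 had an unadjusted p under 0.05 in limma, beside 1.6% higher and 8.58% lower of all genes. Among them the globin genes Hba-a1 (0.38) and Hba-a2 (0.42) were higher in CCl4 hearts. The part of red cell RNA in the Tfrc values was not tested.

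The 3 transporters were low. Slc39a14 (chr14:70303469-70351425, minus strand), the zinc transporter ZIP14 that also imports iron not bound to transferrin, was at 0.772, 0.992 and 1.04 RPKM in Control hearts (lowest, median, highest) and 0.619, 0.879 and 1.08 in CCl4 hearts. CCl4 2 and 4 were the lowest hearts and CCl4 3 the highest, so the groups overlapped. The means were 0.945 ± 0.113 and 0.857 ± 0.157 RPKM (SD, n = 6 each), and the log2 fold change was -0.07 (SE 0.07, adjusted p = 0.783, limma).

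Slc11a2 and Slc40a1 did not meet the expression filter. Slc11a2 (chr15:100387898-100425072, minus strand), the divalent metal transporter DMT1, was at 0.419 to 0.574 RPKM in Control and 0.392 to 0.539 in CCl4 hearts, with means of 0.490 ± 0.0599 and 0.453 ± 0.0534 (SD, n = 6 each). Slc40a1 (chr1:45908068-45926523, minus strand), ferroportin, was at 0.249 to 0.327 RPKM in Control and 0.210 to 0.336 in CCl4 hearts, with means of 0.290 ± 0.0265 and 0.266 ± 0.0458 (SD, n = 6 each). The groups overlapped in both genes. The difference on log2(RPKM + 1) was -0.04 for Slc11a2 (p = 0.288, exact permutation test, two-sided, unadjusted). For Slc40a1 it was -0.03 (p = 0.279, exact permutation test, two-sided, unadjusted). Slc40a1 rested on 72 to 192 reads a heart and Slc11a2 on 75 to 217.

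Hepcidin RNA was highest in the 5 hearts with high Myl7, Myl4, Sln and adipocyte markers, in both groups. Hamp (chr7:30942368-30944032, minus strand) was at 13.9, 4.11, 4.68, 0.216, 2.05 and 0 RPKM in Control hearts 1 to 6, and at 0.712, 1.72, 0.405, 10.04, 0.478 and 0.0973 in CCl4 hearts 1 to 6. The 5 hearts rich in atrial markers held 2.05 to 13.9 RPKM and the other 7 held 0 to 1.72, with no overlap. The gap between them was narrow and rests on few reads, 36 in Control 5 (2.05 RPKM) and 28 in CCl4 2 (1.72 RPKM). The Hamp levels rest on 268 reads in Control 1 and 261 in CCl4 4. The others held 2 to 111 reads, except Control 6, which held 0. In Control 6, 0 reads allow up to 0.278 RPKM (3 reads, counting error only, each read taken as independent). That limit would be higher if both ends of a fragment were counted.

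Between treatments the Hamp groups overlapped. The means were 4.16 ± 5.15 and 2.24 ± 3.86 RPKM (SD, n = 6 each), and the log2 fold change was -0.63 (SE 0.67, adjusted p = 0.795, limma). Among hearts poor in atrial markers the mean was 0.108 RPKM in 2 Control and 0.683 in 5 CCl4 hearts, a difference of 0.54 on the log2 scale in the opposite direction, and with the mean atrial marker level as a covariate the estimate was 0.45 (SE 0.25, adjusted p = 0.555, limma). Among hearts rich in them it was 6.19 RPKM in 4 Control hearts and 10.04 in 1 CCl4 heart. The parts of atrial and of adipose RNA in the Hamp values were not tested, and cannot be told apart by these hearts, which divide alike in both.

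Liver RNA was at or near 0 in these hearts. The hepatocyte markers Serpina1a and Fgb were under 0.1 RPKM in all 12 hearts, Alb reached 0.187 RPKM, and all 6 hepatocyte markers together summed to 0.436 to 2.04 RPKM. The second hepcidin gene, Hamp2, was at 0 to 0.802 RPKM. The plot of Hamp against Myl7 shows the 2 sets of hearts.

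**Figure D2:**
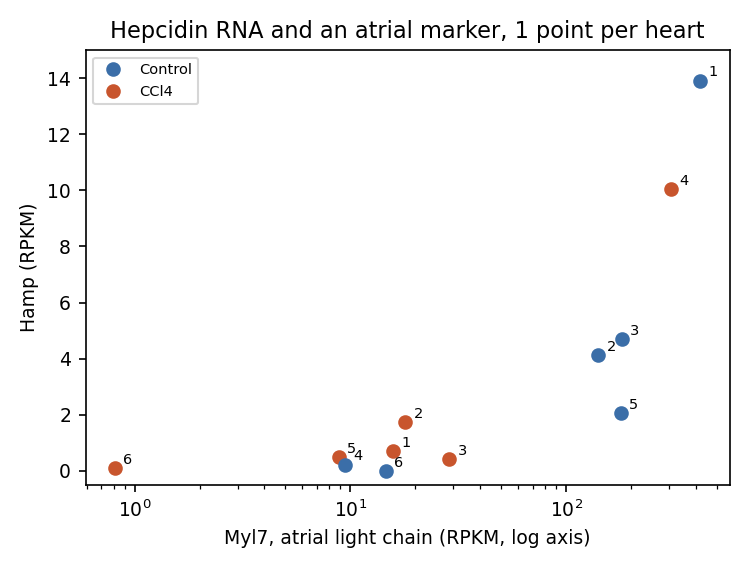
Hamp RPKM (y axis, linear) against Myl7 RPKM (x axis, log scale), 1 point per heart with its replicate number. The 5 hearts with Myl7 at 140.7 RPKM or more hold Hamp at 2.05 to 13.9 RPKM, and the other 7 lie between 0 and 1.72.

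The 2 metallothionein genes had similar mean RPKM values, but the contrast between the groups was small for Mt1 and larger for Mt2. Mt1 (chr8:94179082-94180327) was at 3.39, 5.34 and 8.58 RPKM in Control hearts (lowest, median, highest) and 3.67, 6.22 and 7.78 in CCl4 hearts. Every CCl4 heart lay within the Control range. The means were 5.54 ± 1.82 and 5.88 ± 1.60 RPKM (SD, n = 6 each), with a log2 fold change of 0.08 (SE 0.19, adjusted p = 0.922, limma), which was -0.02 without Control 3.

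Mt2 (chr8:94172664-94173568) had the smallest unadjusted p of the 8 tested genes, without passing the adjusted threshold. Its levels were 10.9, 3.31, 1.82, 1.73, 4.998 and 3.16 RPKM in Control hearts 1 to 6, and 3.24, 9.52, 6.14, 9.07, 7.41 and 8.48 in CCl4 hearts 1 to 6. CCl4 hearts 2 to 6 lay above Control hearts 2 to 6, while Control 1 was the highest of all 12 and CCl4 1 lay among the Control hearts. The means were 4.33 ± 3.45 and 7.31 ± 2.33 RPKM (SD, n = 6 each), 1.69 times as high in CCl4 hearts, and 6 of 6 CCl4 hearts were above the Control median. CCl4 1 was above that median only just, at 3.244 RPKM against 3.236.

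The log2 fold change of Mt2 was 0.78 (SE 0.33, unadjusted p = 0.0326, adjusted p = 0.430, limma), and an exact two-sided permutation test gave p = 0.0714. Without Control 1 it was 1.05 (SE 0.25, adjusted p = 0.0964, limma). With limma's array weights, which give less weight to hearts that stand apart from their group, it was 0.97 (SE 0.25, adjusted p = 0.0225, limma), but under that setting 2249 genes passed. Leaving out both hearts numbered 1, a choice made after their values were seen and which removes the highest Control and the lowest CCl4 level, gave 1.24 (SE 0.20, adjusted p = 0.0095, limma), with 323 genes passing. The estimate was also above 0 within hearts poor in atrial markers (1.17, 2 Control and 5 CCl4 hearts), rich in them (0.89, 4 and 1), with Xist above 1 RPKM (0.73, 4 and 4) and with Xist at or under it (0.89, 2 and 2).

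The ratio of Mt2 to Mt1 within a heart does not depend on library scaling. It was 1.27, 0.623, 0.538, 0.413, 0.781 and 0.590 in Control hearts 1 to 6 and 0.758, 1.34, 1.68, 1.43, 1.21 and 1.09 in CCl4 hearts 1 to 6. The ratio was below 1 in 5 of 6 Control hearts and above 1 in 5 of 6 CCl4 hearts. Replicate 1 of each group was the exception. The mean ratios were 0.703 ± 0.305 and 1.25 ± 0.313 (SD, n = 6 each). The difference between the responses of the 2 genes was not tested. Where 1 lies depends on the exon lengths used, 1246 bases for Mt1, its whole locus with no intron left out, and 588 for Mt2. In CCl4 3, which had the highest ratio, Mt1 held 220 reads and Mt2 held 174. Which of the 2 genes has more RNA is therefore not settled.

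**Figure D3:**
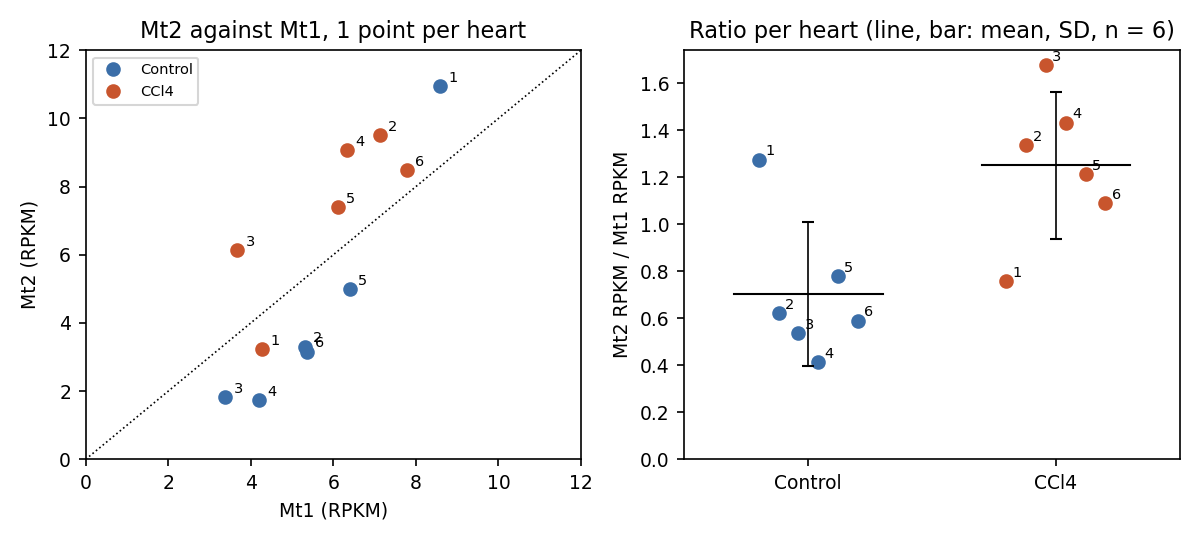
Left, Mt2 RPKM against Mt1 RPKM (linear axes, 1 point per heart with its replicate number, dotted line of equal RPKM). Right, the ratio per heart by group with mean and SD (n = 6), at 0.703 in Control and 1.25 in CCl4 hearts; replicate 1 lies apart in both groups.

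Other measures moved with some of these values. Control 1, the heart highest in both metallothioneins, had the highest sum of 5 glucocorticoid target genes, 49.5 RPKM against 23.6 to 31.2 in the other Control hearts and 18.0 to 37.4 in CCl4 hearts. Its sum of acute phase genes was 6.77 RPKM, close to the 6.52 of Control 5, while the other Control hearts ran from 1.11 to 4.29 and CCl4 hearts from 0.804 to 6.43, and Saa1 and Saa2 were under 0.1 RPKM in all 12 hearts. The part of either in the metallothionein values was not tested. The related gene Mt3 was at 0 to 1.22 RPKM, highest in Control 1 (1.22) and CCl4 4 (0.917).

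At the Mt2 locus the reads could not be assigned to a strand. The antisense gene model Gm45774 (chr8:94170748-94173412, minus strand, 2665 bases) covers 73.5% of the Mt2 exons. A row named RP23-98C9.5, whose values become whole reads at that same length of 2665 bases, held the same number of reads as Mt2 in 6 of 12 hearts and differed by at most 4 reads in all 12, over a range of 46 to 338 Mt2 reads. The name itself was not matched to the annotation. Reads from Mt2 and from an antisense RNA therefore cannot be told apart in these values.

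The plot of the 8 estimates sets Mt2 beside the others and shows how far each moved with the processing.

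**Figure D4:**
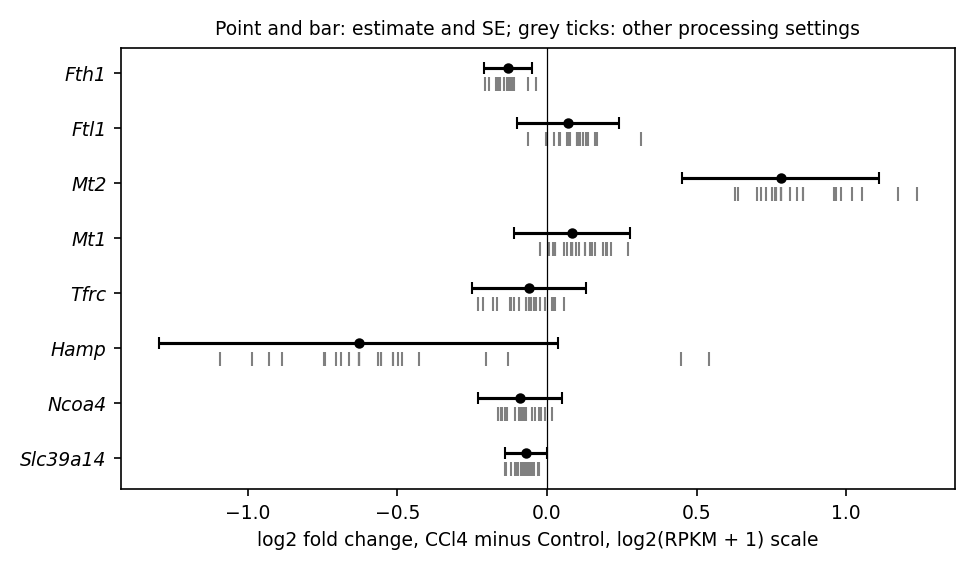
Difference between CCl4 and Control means of log2(RPKM + 1) (x axis; above 0, higher in CCl4) for the 8 genes that met the expression filter; the point and bar are the estimate and its SE, and grey ticks are the same estimate under other processing settings. Mt2 stays above 0, from 0.63 to 1.24, and Fth1 and Slc39a14 stay below 0, while Tfrc, Ftl1, Ncoa4, Mt1 and Hamp lie on both sides.

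For each tested gene the 3 other genes with the most similar profile over the 12 hearts are given by Pearson's r of log2(RPKM + 1), as a description of hearts that share their group and library. Hamp ran with Mybphl, Sbk3 and Ppl, given without r because the hearts fall into 2 sets. Mt2 ran with RP23-98C9.5 (0.996), Nrn1 (0.929) and Abca6 (0.928). Mt1 ran with 1700120C14Rik (0.937), Adcy6 (0.881) and Plet1 (0.838), so none of its 3 was among those of Mt2. Ftl1 ran with Trim47 (0.978), Stx1a (0.975) and Gm22133 (0.974), the last of which lies inside it. Fth1 ran with Aimp1 (0.929), Tsfm (0.920) and Ptges2 (0.919), Tfrc with Fgf16 (0.873), Irx2 (0.873) and Asb5 (0.844), Ncoa4 with Rps6ka2 (0.946), Zc3h15 (0.929) and Top1 (0.924), and Slc39a14 with Reep4 (0.950), Gm8995 (0.945) and Adam15 (0.945).

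The wider iron and zinc machinery was read from 5 lists holding 112 other genes, 85 of them tested. None of the 85 passed the adjusted threshold in limma; 2 were higher and 8 lower at an unadjusted p under 0.05. Estimates were above 0 in 21 and below 0 in 64, with a median of -0.05, equal at this precision to that of all genes tested. The shares at an unadjusted p under 0.05 over all genes were 1.6% higher and 8.58% lower, near those of the lists. Another scaling shifts genes together, but low genes less than high ones on log2(RPKM + 1). Without mitochondrial RNA Fth1 moved from -0.13 to -0.04 and the low gene Slc39a14 from -0.07 to -0.03. Each list is given by its median beside that of all genes, -0.05 as deposited and 0.02 when scaled without mitochondrial RNA. That comparison makes no allowance for the level of the listed genes.

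The list of hepcidin control, which holds the pathway and its targets, had the 2 smallest p-values of the lists, those of Id1 and Hfe2. Of 16 tested genes of hepcidin control, 3 were lower at an unadjusted p under 0.05 and 0 higher, beside 8.58% and 1.6% of all genes. As deposited 12 were below 0 and 4 above, with a median of -0.07, and the median was -0.0034 when scaled without mitochondrial RNA. Id1, a direct target of bone morphogenetic protein signals, was at 8.80 to 11.7 RPKM in Control and 5.45 to 8.94 in CCl4 hearts, with means of 10.2 ± 1.39 and 6.52 ± 1.24 (SD, n = 6 each). CCl4 1 alone reached into the Control range. The log2 fold change was -0.58 (SE 0.11, adjusted p = 0.0949, limma) and was -0.66 (SE 0.10, adjusted p = 0.0205, limma) without CCl4 1.

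Hfe2, which encodes hemojuvelin, a co-receptor of the same pathway found in liver and striated muscle, was at 16.2 to 27.8 RPKM in Control and 8.59 to 21.5 in CCl4 hearts. Control 1 and CCl4 1 and 4 were the hearts that overlapped. The means were 23.7 ± 4.13 and 14.5 ± 4.37 RPKM (SD, n = 6 each), with a log2 fold change of -0.69 (SE 0.18, adjusted p = 0.229, limma). The 7 cardiomyocyte markers summed to 25470 to 31840 RPKM in Control and 18100 to 27970 in CCl4 hearts, with CCl4 3 lowest in that sum and in Hfe2; the part of cardiomyocyte RNA in Hfe2 was not tested. Smad7, an inhibitor in the pathway, went from 2.19 ± 0.280 to 1.59 ± 0.548 RPKM (-0.32, SE 0.13, adjusted p = 0.404, limma). Id1, Hfe2 and Smad7 are named because they had the smallest p-values of this list in limma. No other tested gene of the list had an unadjusted p under 0.05 as deposited. Id1, Hfe2 and Smad7 kept p under 0.05, unadjusted, under each scaling tried, while Hamp itself did not differ beyond its spread.

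Mitochondrial iron and iron-sulphur cluster genes lay mostly below 0. Of 28 tested, 25 were below and 3 above, with a median of -0.11 against -0.05 for all genes. When scaled without mitochondrial RNA 16 were below and 12 above, with a median of -0.03 against 0.02 for all genes. At an unadjusted p under 0.05, 4 were lower and 0 higher as deposited, beside 8.58% and 1.6% of all genes. The split followed the scaling here too, with 2 lower and 2 higher without mitochondrial RNA, and 1 lower and 2 higher by medians of ratios. Alad, an early enzyme of haem synthesis, went from 4.66 ± 0.776 to 3.16 ± 0.866 RPKM (SD, n = 6 each), with a log2 fold change of -0.45 (SE 0.13, adjusted p = 0.264, limma), and -0.56 (adjusted p = 0.0397, limma) without CCl4 1. Urod, a later enzyme of the same route, had an estimate of -0.17 (adjusted p = 0.436, limma), and Iba57, which serves cluster assembly, -0.21 (adjusted p = 0.370, limma). Scaled without mitochondrial RNA, Urod was -0.09 and Iba57 -0.17, with unadjusted limma p-values of 0.230 and 0.0408. By medians of ratios they were -0.11 and -0.18, with unadjusted limma p-values of 0.311 and 0.0584.

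The remaining lists are given in the same way. Of 14 tested genes of iron uptake and export, 6 were above 0 and 8 below as deposited, with a median of -0.03. When scaled without mitochondrial RNA 8 were above and 6 below, with a median of 0.05. At an unadjusted p under 0.05, 2 were higher and 0 lower as deposited, beside 1.6% and 8.58% of all genes. These were Cacna1c, the cardiac L-type calcium channel, which can also pass iron, at 4.84 ± 0.571 and 6.02 ± 0.964 RPKM (0.26, SE 0.10, adjusted p = 0.402, limma), and Steap3, an endosomal iron reductase, at 0.730 ± 0.128 and 1.11 ± 0.413 RPKM (0.27, SE 0.11, adjusted p = 0.428, limma). As TPM neither kept an unadjusted p under 0.05. Steap4 (-0.20, adjusted p = 0.600, limma) and the haemoglobin scavenger receptor Cd163 (-0.21, adjusted p = 0.616, limma) were next.

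Of 13 tested genes of iron sensing and ferritin handling, 4 were above 0 and 9 below as deposited, with a median of -0.02. When scaled without mitochondrial RNA 10 were above and 3 below, with a median of 0.05. At an unadjusted p under 0.05, 1 was lower and 0 higher as deposited, beside 8.58% and 1.6% of all genes. The hypoxia factor Epas1 was the 1 gene lower at an unadjusted p under 0.05, at 58.3 ± 4.05 and 51.0 ± 4.90 RPKM (-0.19, SE 0.09, adjusted p = 0.461, limma). It was -0.12 by medians of ratios and -0.10 when scaled without mitochondrial RNA, with unadjusted limma p-values of 0.222 and 0.234. Pcbp4 (-0.16), Hif1a (0.24) and Nedd4l (-0.12) had adjusted p-values of 0.553, 0.640 and 0.689 in limma. Of 14 tested metallothionein and zinc genes, 4 were above 0 and 10 below as deposited, with a median of -0.05. Of these, 0 had an unadjusted p under 0.05, beside 1.6% higher and 8.58% lower of all genes. When scaled without mitochondrial RNA 8 were above and 6 below, with a median of 0.01. The zinc exporter Slc30a1, like the metallothioneins a target of MTF1, was at 1.88 ± 0.321 and 1.48 ± 0.322 RPKM (-0.22, SE 0.10, adjusted p = 0.492, limma). Its groups overlapped, at 1.47 to 2.21 RPKM in Control and 1.03 to 1.86 in CCl4 hearts. The part of MTF1 in these values was not tested. Mtf1 itself (-0.05), Slc30a5 (-0.16) and Slc39a10 (-0.11) had adjusted p-values of 0.806, 0.662 and 0.812 in limma.

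**Figure D5:**
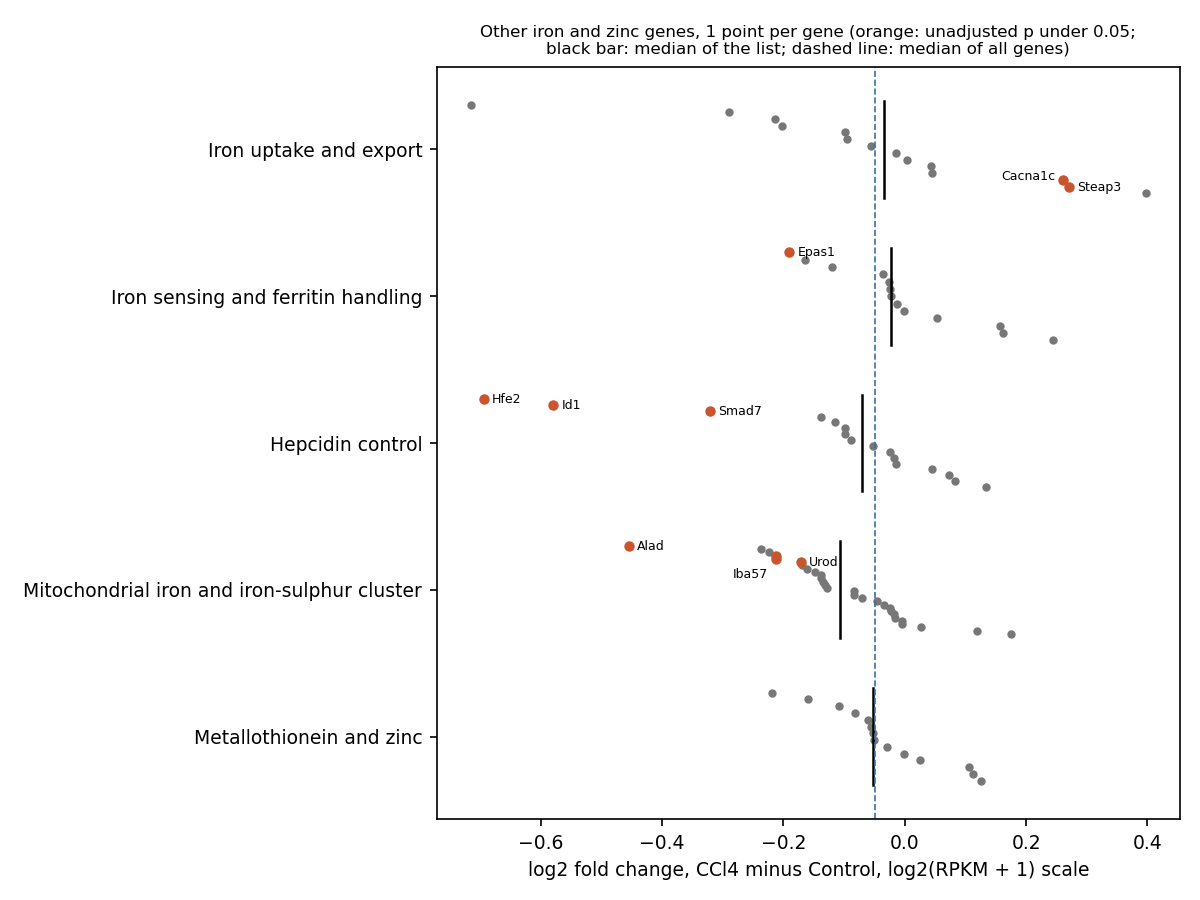
Difference between CCl4 and Control means of log2(RPKM + 1) (x axis; above 0, higher in CCl4) of the tested genes of the 5 lists, 1 point per gene; orange points have an unadjusted p under 0.05, black bars are list medians and the dashed line is the median of all genes tested. Hfe2, Id1 and Alad lie lowest among the orange points, and 0 points passed the adjusted threshold.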

How the data were processed

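Messenger RNA of 12 mouse hearts was sequenced, with TRIzol extraction and a stranded library kit per the labels' protocols. The submitters' processing notes name Trimmomatic 0.36, Subread 1.5.1 with its counter featureCounts, and GRCm38. Aligner, annotation release, strand setting and treatment of multi-mapped reads are not given in the sources used here. Values were deposited by the authors in RPKM for 31722 gene symbols, 1 column per heart. Replicate numbers come from the labels, and p-values measure the spread between these hearts.

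Levels were tested as log2(RPKM + 1) with limma 3.58.1 (lmFit and eBayes with a trend) in R 4.3.3, over 14087 genes at or above 0.5 RPKM in at least 6 hearts, with Benjamini-Hochberg adjustment. On simulated data for this comparison (13469 genes) limma called 26.9% of genes changed 1.5-fold, 94.0% of those changed 2-fold, 97.0% of those changed 4-fold and 0.0452% of unchanged genes. The simulation gave every gene the same spread beyond counting error, changed no gene with few reads, and held no sex or atrial differences between hearts. In real Control hearts the SD was 79.7% of the mean for Mt2, 123.8% for Hamp, 40.2% for Tfrc and 5.92% for Fth1. These shares therefore need not hold for the real genes. Single values were tested over all 924 splits of the hearts (smallest possible p 0.00216). Tables were handled with Python 3.11.15 and pandas 2.3.3. Reads were recovered from RPKM with GENCODE M21 exon lengths (95.2% of symbols matched); 92.6% to 93.9% of low values came out within 0.05 of a whole number. RPKM are not counts, so voom on the recovered reads was an alternative and called 0 genes. Loci are GENCODE M21 on GRCm38 and promoters RefSeq on GRCm38.p6. Hairpins needed 5 of 5 upper and at least 3 of 5 lower pairs.

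The genes, lists and tests were chosen with earlier results of these data known. Genes named are the 10, up to 4 of each list with the smallest p, the 3 most similar to each, and genes a result turns on. An item that this rule names is not reported here.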

Additional observations from a re-analysis of the deposited data

Results flagged for a closer look

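Among 20 sets of 6 hearts (10 genes in 2 groups), 3 held a heart whose gap to its nearest neighbour exceeded the limit of Dixon's test, where chance gives about 1 in 20. Hamp in Control 1 was at 13.9 RPKM (next 4.68), and Hamp in CCl4 4 at 10.04 RPKM (next 1.72); both hearts are among the 5 rich in atrial markers. Mt2 in Control 1 was at 10.9 RPKM (next 4.998), and that heart also led the Control group in Mt1, at 8.58 RPKM.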

How the results depend on the processing

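No gene passed limma on the deposited values. Array weights gave 2249 genes, of which 1 was Mt2 (0.97) and 12 were list genes. Leaving out both hearts numbered 1, added after seeing the data, gave 323 genes, 1 of them Mt2 (1.24), and 3 list genes (Alad, Hfe2, Id1). Leaving out 1 heart gave 0 to 47 genes (31 without Control 1, 47 without CCl4 1, 1 without CCl4 4, 2 without CCl4 6), 0 to 2 list genes (2 without CCl4 1) and 0 of the 10. The cause was not tested. Signs turned for Ftl1 as TPM (-0.000255), Tfrc when scaled without mitochondrial RNA (0.0157) or with array weights (0.0198), and Hamp with an atrial covariate (0.45) or without the 5 hearts richest in atrial markers (0.54, added after seeing the data). Leaving out 1 heart, Tfrc ran from -0.22 to 0.06 (0.0555 without Control 3, 0.0284 without Control 4), Mt1 from -0.0236 to 0.20, Ftl1 from -0.0618 to 0.17 (-0.00287 without Control 6), Ncoa4 from -0.16 to 0.0180 and Mt2 from 0.63 to 1.05. Mt2 stayed above 0 in all alternatives, with adjusted p from 0.0095 to 0.912. With the replicate number as a block, 0 genes passed and Mt2 was 0.78 (adjusted p = 0.673, limma); same-numbered hearts deviated together with r of -0.47, 0.23, -0.02, -0.25, 0.18 and 0.14, and 4 of 12 correlated best with their own number, so the numbers were not taken as pairs. At unadjusted p under 0.05, TPM gave 144 higher and 1578 lower. Hamp, Slc40a1 and Slc11a2 are limited by their few reads.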
